A study of Caenorhabditis elegans with 6 samples.

Results

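Rab GTPases are small membrane switches that mark the compartments of the secretory and endocytic pathways. In the GTP-bound form a Rab recruits tethers, motors and other effectors to its membrane. Exchange factors (GEFs) load it with GTP, GTPase activating proteins (GAPs) switch it off, and a prenyl anchor, escort protein and dissociation inhibitor (GDI) move it on and off the membrane. RAB-11 acts at the recycling endosome, from which cargo returns to the cell surface. Described here are 10 Rab genes of Caenorhabditis elegans, picked by name from the 46739 features of the table. They are rab-11.1, which was the target of the RNA interference (RNAi), its paralogue rab-11.2, and rab-1, rab-5, rab-7, rab-8, rab-10, rab-14, rab-35 and rab-39 of secretion, endocytosis and recycling.

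RNA with poly(A) tails was sequenced from whole L4 larvae of the wild-type strain N2, in 3 libraries after rab-11.1 RNAi and 3 after the empty vector (EV RNAi). In RNAi by feeding, worms eat Escherichia coli HT115 carrying double-stranded RNA of the gene to be silenced, and the empty vector targets no worm gene. Both groups grew at 20 °C with IPTG and carbenicillin in the plates and were on RNAi throughout development. Each group holds 3 biological replicates per the labels, which do not say whether cultures were separate, so p-values measure the spread between these libraries. The libraries were recovered as 22946375 to 25107994 reads in rab-11.1 RNAi larvae and 27190567 to 30183162 reads in EV RNAi larvae, and a single read on 1 kb of transcript stood for 0.0331 to 0.0436 RPKM, a read count scaled to transcript length and library depth. In whole larvae, fewer cells of a type and less RNA per cell cannot be told apart.

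The markers of intestine, muscle, pharynx, neurons, epidermis, germline and sperm in the table were above 0 in every library, except 1 sperm marker. This was msp-31, with 3 reads in EV RNAi replicate 1 and 0 in every other library. The summed level of 10 neuron markers ran from 456 to 628 RPKM in rab-11.1 RNAi libraries and from 336 to 396 RPKM in EV RNAi libraries. Of these 10, limma called 1 higher, snb-1 (log2 0.80, SE 0.18, adjusted p = 0.039), against 7.93% of all features. That of 10 body wall muscle markers ran from 3930 to 4310 RPKM in rab-11.1 RNAi libraries and from 4580 to 4780 RPKM in EV RNAi libraries. In 7 of these 10 all rab-11.1 RNAi libraries lay below all EV RNAi libraries, against 6.53% of all features. By limma 0 of them were called, and 5 were lower at an unadjusted p under 0.05, against 4.93%. Pharynx markers, 10 in number, summed to 234.8 to 335.4 RPKM in rab-11.1 RNAi libraries and 352.4 to 390.4 RPKM in EV RNAi libraries. Of the 9 tested limma called 0, and they went both ways. In 3 all rab-11.1 RNAi libraries lay below all EV RNAi libraries, against 6.53% of all features. In 2, pha-4 and phat-3, they all lay above, against 27.4%. For 11 intestine markers the sums were 4670 to 5940 RPKM in rab-11.1 RNAi libraries and 5770 to 6490 RPKM in EV RNAi libraries. These ranges overlap. Of the 11, 1 was called lower, against 1.07% of all features, and 0 higher. It was vha-6, a proton pump subunit of the intestine (log2 -0.50, SE 0.11, adjusted p = 0.0369 by limma). In 2 of the 11 all rab-11.1 RNAi libraries lay below all EV RNAi libraries, and in 1, elt-2, above (log2 0.30, adjusted p = 0.0936). The sums of the 10 epidermis markers (3560 to 4570 RPKM in rab-11.1 RNAi libraries, 4200 to 4690 RPKM in EV RNAi libraries) overlap. So do those of 12 sperm markers (151 to 324 RPKM in rab-11.1 RNAi libraries, 179 to 418 RPKM in EV RNAi libraries). Of the 10 epidermis markers limma called 1 higher, elt-3 (log2 0.60, SE 0.13, adjusted p = 0.0385). The 12 germline markers summed to 363 to 651 RPKM in rab-11.1 RNAi libraries and 482 to 846 RPKM in EV RNAi libraries. These sums overlap and limma called 0 of the 12 (0 also at an unadjusted p under 0.05), but with the replicate numbers as a block 9 of the 12 were lower, against 4.47% of all features. With this block 3 of 11 sperm markers tested were also lower, as was 1 marker each of intestine, body wall muscle, pharynx and epidermis. Higher with it were 4 of 10 neuron markers and 1 each of intestine, pharynx and epidermis, against 16.5% of all features. The collagen gene col-19, a marker of the adult cuticle, had 17.2, 3.24 and 48.6 RPKM in rab-11.1 RNAi larvae, against 244, 43.6 and 210.5 RPKM in EV RNAi larvae. The groups overlap, and limma did not call it (log2 -3.08, SE 0.99, adjusted p = 0.107). The part of tissue make-up and stage in the values below was not tested.

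The target did not behave alike in the 3 libraries that carry its name, called R1, R2 and R3 here after their replicate numbers. The targeted gene rab-11.1 is a protein-coding gene on the minus strand of chromosome I (WBcel235, 108682 to 110057, WBGene00004274). Its level was 151.3, 137.8 and 632.6 RPKM in R1, R2 and R3, against 411.1, 398.2 and 409.5 RPKM in EV RNAi replicates 1, 2 and 3. R1 and R2 lay at 37.2% and 33.9% of the EV RNAi mean, and the library labelled R3 at 156% of it, above all EV RNAi libraries. For the target, R3 thus runs counter to its label, and it is part of every rab-11.1 RNAi value below unless stated. The groups overlap, with 307 ± 282 RPKM in rab-11.1 RNAi larvae and 406 ± 7.01 RPKM in EV RNAi larvae (SD, n = 3 each).

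By limma across all tested features the group difference of rab-11.1 missed the threshold (log2 difference in RPKM + 1 of -0.78, 95% interval -2.07 to 0.52, adjusted p = 0.415). Without R1 the difference was -0.46 (SE 0.59, adjusted p = 0.669), without R2 -0.39 (SE 0.54, adjusted p = 0.782) and without the library labelled R3 -1.49 (SE 0.09, adjusted p = 0.00557), where 0.596% of the features tested were called lower. That library stands apart by its own rab-11.1 level, so the last value describes R1 and R2 and is no independent test of the target. The values are 1 number per gene, so where along the transcript the reads lay is not known here.

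**Figure D1:**
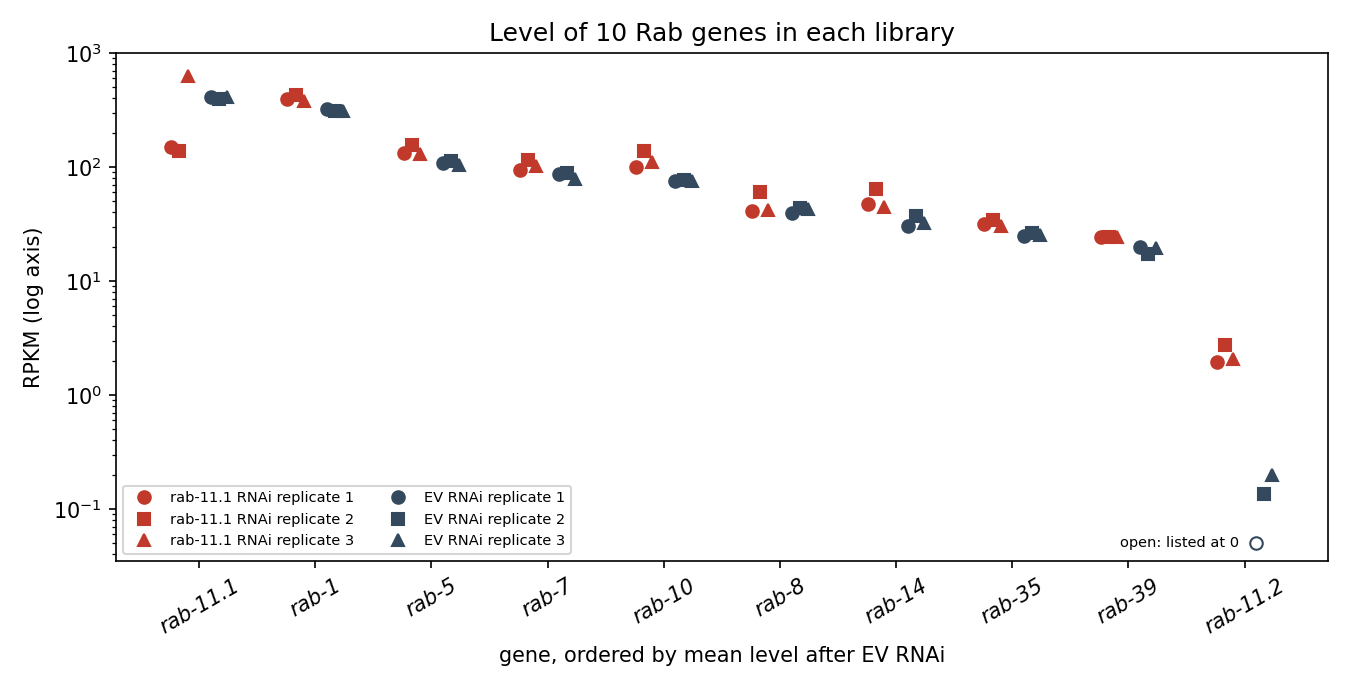
Level in RPKM (log axis) of the 10 Rab genes in each library, rab-11.1 RNAi (red) left of EV RNAi (dark), with a marker shape for each replicate number. The rab-11.1 RNAi libraries of rab-11.1 lie at 151.3 and 137.8 RPKM for R1 and R2 and at 632.6 RPKM for R3, whereas rab-11.2 stays below 3 RPKM in all libraries and is listed at 0 in EV RNAi replicate 1.

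The profile of rab-11.1 over the libraries was looked for among the 13833 features tested, which had 3 or more libraries at 1 RPKM or above. The conditions below describe the values of rab-11.1, which meets them for that reason, so the counts are a description only. R1 and R2 lay below all EV RNAi libraries and the library labelled R3 above all of them for 97 features (0.701%). With the further conditions that R1 and R2 be at 50% of the EV RNAi mean or less and the library labelled R3 at 150% or more, 2 features were left, rab-11.1 and Y37E11AL.12. The gene Y37E11AL.12, named after its values were seen, had 0.465, 0.762 and 3.40 RPKM in rab-11.1 RNAi larvae, against 2.00, 1.90 and 1.83 RPKM in EV RNAi larvae. These levels rest on 3, 5 and 24 reads in rab-11.1 RNAi larvae and 17, 16 and 14 reads in EV RNAi larvae. Among 9890 features at a mean of 5 RPKM or more, 5 had a level in R3 at least 4.38 times the mean of R1 and R2, the ratio of rab-11.1. The other 4 were the yolk gene vit-4 and the cuticle collagens col-19, col-62 and col-7, with ratios of 4.85, 4.76, 5.08 and 7.06. For these genes the library labelled R3 did not rise above all EV RNAi libraries. For vit-4, for example, it held 3.74 RPKM, against 17.4 RPKM or more in each EV RNAi library.

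The features whose log2(RPKM + 1) over the 6 libraries had the highest Pearson correlation with rab-11.1, as a description, were F22F7.8 (r = 0.966), Y116A8C.27 (0.964), Y53G8AR.7 (0.961), dnj-24 (0.959) and ZK470.6 (0.959), of 9889 compared. In all 5, R1 and R2 were the lowest libraries and the library labelled R3 the highest, and the differences were smaller than those of rab-11.1. ZK470.6 had 3.70, 2.62 and 7.25 RPKM in rab-11.1 RNAi larvae, against 6.95, 6.68 and 6.64 RPKM in EV RNAi larvae. The co-chaperone gene dnj-24 stayed within 51.3 to 56.2 RPKM in rab-11.1 RNAi larvae and 55.0 to 56.0 RPKM in EV RNAi larvae.

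The neighbours of rab-11.1 on the chromosome had other profiles. Y48G1C.8, which ends 458 bases to the left on the same strand, had 15.3, 7.98 and 13.9 RPKM in rab-11.1 RNAi larvae, against 20.7, 18.1 and 22.9 RPKM in EV RNAi larvae (adjusted p = 0.101 by limma). The ribosomal protein gene rpl-7, which begins 980 bases to the right on the other strand, had 2932, 2835 and 2894 RPKM in rab-11.1 RNAi larvae, against 3082, 3402 and 3363 RPKM in EV RNAi larvae (adjusted p = 0.15). Both lay lower in every rab-11.1 RNAi library without passing the threshold, and neither was high in the library labelled R3.

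The paralogue rab-11.2 rose, in all 3 rab-11.1 RNAi libraries. This gene (WBGene00004275, chromosome I, 11632983 to 11638491, minus strand, protein coding) encodes a RAB-11 of its own and was the lowest of the 10 genes. It had 1.96, 2.74 and 2.06 RPKM in rab-11.1 RNAi larvae (33, 47 and 38 reads), against 0, 0.136 and 0.20 RPKM in EV RNAi larvae (0, 3 and 4 reads). The groups do not overlap, and the library labelled R3 had a level between those of R1 and R2. The means were 2.25 ± 0.426 RPKM in rab-11.1 RNAi larvae and 0.112 ± 0.102 RPKM in EV RNAi larvae (SD, n = 3 each). By limma the log2 difference was 1.55 (SE 0.17, 95% interval 1.15 to 1.94, adjusted p = 0.00386), in which the added 1 RPKM understates a gene at this level.

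Summed over libraries, rab-11.2 had 118 reads after rab-11.1 RNAi and 7 reads after EV RNAi. Relative to the recovered library depths this is a ratio of 20.6, with an exact 95% interval of 9.71 to 52.4 that covers counting error only. The gene passed the filter on low values only through the rab-11.1 RNAi libraries, so a call in this direction was the only one open to it. With no filter the adjusted p was 0.00503, and 3 of the 10 genes (rab-11.2, rab-1 and rab-10) were called higher, against 4.34% of the 19491 features then tested. Leaving out R1, R2 or the library labelled R3 put it below the filter. With that filter lowered to 2 libraries, a setting chosen after seeing the data, it passed without R1, R2 or the library labelled R3 (adjusted p = 0.0188, 0.00871 and 0.0156).

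Even so rab-11.2 remained a small part of the RAB-11 transcripts. Its RPKM was 1.29%, 1.99% and 0.326% of that of rab-11.1 in the rab-11.1 RNAi libraries, against 0%, 0.0342% and 0.0489% in the EV RNAi libraries. Of its flanking genes, W04G5.4, 64 bases to the left, had 0.11, 0.189 and 0.25 RPKM in rab-11.1 RNAi larvae, against 0.229, 0.44 and 0.0462 RPKM in EV RNAi larvae. On the right W04G5.9, which begins 4529 bases away, had 1 read in all. The exons of rab-11.2 share 10 bases with W04G5.10 on the same strand. No source used here says how reads shared by paralogues or overlapping genes were split.

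Most of the 10 genes had higher levels in every rab-11.1 RNAi library. In 8 of the 10 genes, rab-11.2 among them, all rab-11.1 RNAi libraries lay above all EV RNAi libraries, which was so for 27.4% of the features tested, and in 0 of the 10 they all lay below, which was so for 6.53%. The adjusted p passed for 4 of the 10, rab-11.2, rab-1, rab-10 and rab-39, all higher, against 7.93% of the features tested, and 0 of the 10 were called lower, against 1.07%. Of the 4, rab-11.2 passed the filter only through the rab-11.1 RNAi libraries. At an unadjusted p under 0.05 limma had 8 of the 10 higher and 0 lower, against 21.6% and 4.93% of the features tested, and limma-voom on recovered reads also called 0 lower. The median log2 difference of the 10 was 0.35 and that of all features tested 0.09. Leaving out the library labelled R3 gave 0 higher (rab-11.2 was then below the filter), against 4.17% of the features then tested, and 1 lower, rab-11.1, with a median of 0.36. With median-of-ratios scaling, quantile normalization or no variance trend, rab-11.2 was the 1 gene still called, and the calls of rab-1 (adjusted p = 0.135, 0.0531 and 0.0721), rab-10 (0.0788, 0.0585 and 0.0565) and rab-39 (0.122, 0.169 and 0.0766) ended. The labels give both groups replicate numbers, and with these as a block 7 of the 10 were higher, against 16.5% of the features tested.

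In secretion, rab-1 encodes the Rab of transport from endoplasmic reticulum to Golgi and was, after rab-11.1, the most abundant member in EV RNAi larvae. It lies on chromosome V, 1262629 to 1263989, minus strand (WBGene00004266). Its levels were 395.8, 426.4 and 382.9 RPKM in rab-11.1 RNAi larvae, against 321.9, 309.4 and 312.5 RPKM in EV RNAi larvae. All rab-11.1 RNAi libraries lay above all EV RNAi libraries, with means of 402 ± 22.3 RPKM in rab-11.1 RNAi larvae and 315 ± 6.51 RPKM in EV RNAi larvae (SD, n = 3 each). The difference of 27.7% passed by limma (log2 0.35, SE 0.07, adjusted p = 0.0318). The call ended without any one of the 6 libraries (adjusted p = 0.0614 to 0.143).

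The gene rab-8, whose product carries cargo from the Golgi to the cell surface and the cilium (chromosome I, 3682890 to 3684086, WBGene00004272), was the other member of late secretion. It had 40.9, 59.9 and 41.8 RPKM in rab-11.1 RNAi larvae, against 39.4, 43.4 and 43.2 RPKM in EV RNAi larvae. Only R2 was high, and the groups overlap. The log2 difference of 0.15 had an interval of -0.20 to 0.51 (adjusted p = 0.57 by limma), and without R2 it was -0.02.

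**Figure D2:**
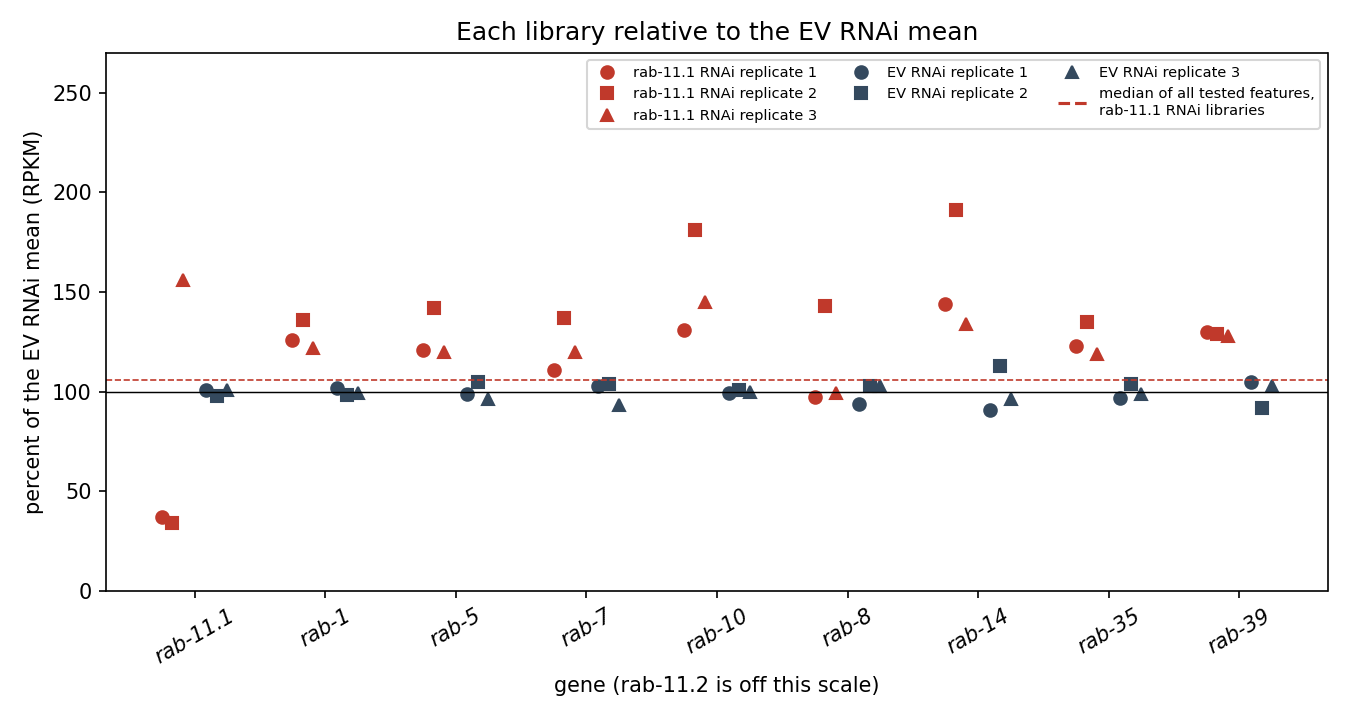
Level of 9 of the Rab genes in each library as a percentage of the mean RPKM of the 3 EV RNAi libraries, rab-11.1 RNAi (red) left of EV RNAi (dark). The dashed line is the median of all tested features in the rab-11.1 RNAi libraries (106%). Apart from rab-11.1 and rab-8, every rab-11.1 RNAi library lies above the EV RNAi libraries, and R2 is highest for most genes, at 191% for rab-14 and 181% for rab-10.

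In recycling, rab-10 had one of the largest differences beside rab-11.2. RAB-10 serves basolateral recycling in the worm intestine. The gene (chromosome I, 6457282 to 6458479, minus strand, WBGene00004273) had 99.2, 137.3 and 109.8 RPKM in rab-11.1 RNAi larvae, against 75.3, 76.3 and 75.7 RPKM in EV RNAi larvae. The EV RNAi libraries differed from each other by little (coefficient of variation 0.678%), and every rab-11.1 RNAi library lay above them. The mean was 52.4% higher (log2 0.59, SE 0.12, adjusted p = 0.0319 by limma). The call held without R1 or R2 (adjusted p = 0.0416 and 0.0257) and ended without the library labelled R3 (0.0709) and without EV RNAi replicate 1, 2 or 3 (0.114, 0.0613 and 0.128).

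RAB-35 of the worm is known for recycling the yolk receptor in oocytes. The gene rab-35 (chromosome III, 11306647 to 11311566, WBGene00004284) had 31.5, 34.3 and 30.5 RPKM in rab-11.1 RNAi larvae, against 24.7, 26.6 and 25.2 RPKM in EV RNAi larvae. The groups do not overlap, and the difference of 25.8% missed the threshold (log2 0.32, SE 0.08, adjusted p = 0.0526 by limma). With the replicate block it passed (adjusted p = 0.0259), as it did with a stricter filter, a mean of 5 RPKM (0.0433).

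Along the endocytic route, RAB-5 acts at early endosomes, and rab-5 (chromosome I, 9308442 to 9310221, plus strand, WBGene00004268) had 131.5, 154.5 and 130.8 RPKM in rab-11.1 RNAi larvae, against 108.01, 114.0 and 104.9 RPKM in EV RNAi larvae. The groups do not overlap. The difference of 27.5% did not pass (log2 0.34, SE 0.09, adjusted p = 0.0611 by limma) and passed with the replicate block (adjusted p = 0.0252). RAB-7 acts at late endosomes and lysosomes, and rab-7 (chromosome II, 11965523 to 11966931, WBGene00004271) had 94.4, 116.4 and 102.0 RPKM in rab-11.1 RNAi larvae, against 87.3, 87.9 and 78.9 RPKM in EV RNAi larvae. Here too the groups do not overlap. The difference did not pass (log2 0.29, 95% interval 0.06 to 0.52, adjusted p = 0.114 by limma), with or without the block. The exons of rab-7 share 47 bases with W03C9.5 on the same strand.

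RAB-14 works between endosomes, Golgi and maturing phagosomes. The gene rab-14 (chromosome X, 15604635 to 15606635, WBGene00004276) had 47.8, 63.6 and 44.5 RPKM in rab-11.1 RNAi larvae, against 30.2, 37.4 and 32.0 RPKM in EV RNAi larvae. Replicate 2 was the highest library of each group. The mean was 56.3% higher, and the log2 difference of 0.62 (SE 0.15) lay just beyond the threshold (adjusted p = 0.0514 by limma). With the replicate block the SE was 0.08 and the adjusted p 0.00745, and it also passed in the block on replicates 1 and 2 alone (0.70, adjusted p = 0.033). Rescaling each library to an equal sum of RPKM (adjusted p = 0.0473) or the stricter filter (0.047) also gave a call.

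Human RAB39 proteins are linked to the Golgi and endolysosomal traffic. The worm gene rab-39 (chromosome II, 9321858 to 9322920, minus strand, WBGene00004286) had 24.5, 24.4 and 24.3 RPKM in rab-11.1 RNAi larvae, against 19.9, 17.3 and 19.4 RPKM in EV RNAi larvae. The rab-11.1 RNAi libraries were nearly level (24.4 ± 0.112 RPKM, against 18.9 ± 1.36 RPKM in EV RNAi larvae, SD, n = 3 each). The difference of 29.1% passed by limma (log2 0.35, SE 0.08, adjusted p = 0.0425). It ended without any one of the 6 libraries (adjusted p = 0.0707 to 0.139). Nor did it pass with limma-voom on recovered reads (adjusted p = 0.0694), with no filter (0.0625) or with equal library sums (0.0789). The gene shares 21 exon bases with wdfy-2 on the other strand, and no source used here says whether counting used the strand.

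**Figure D3:**
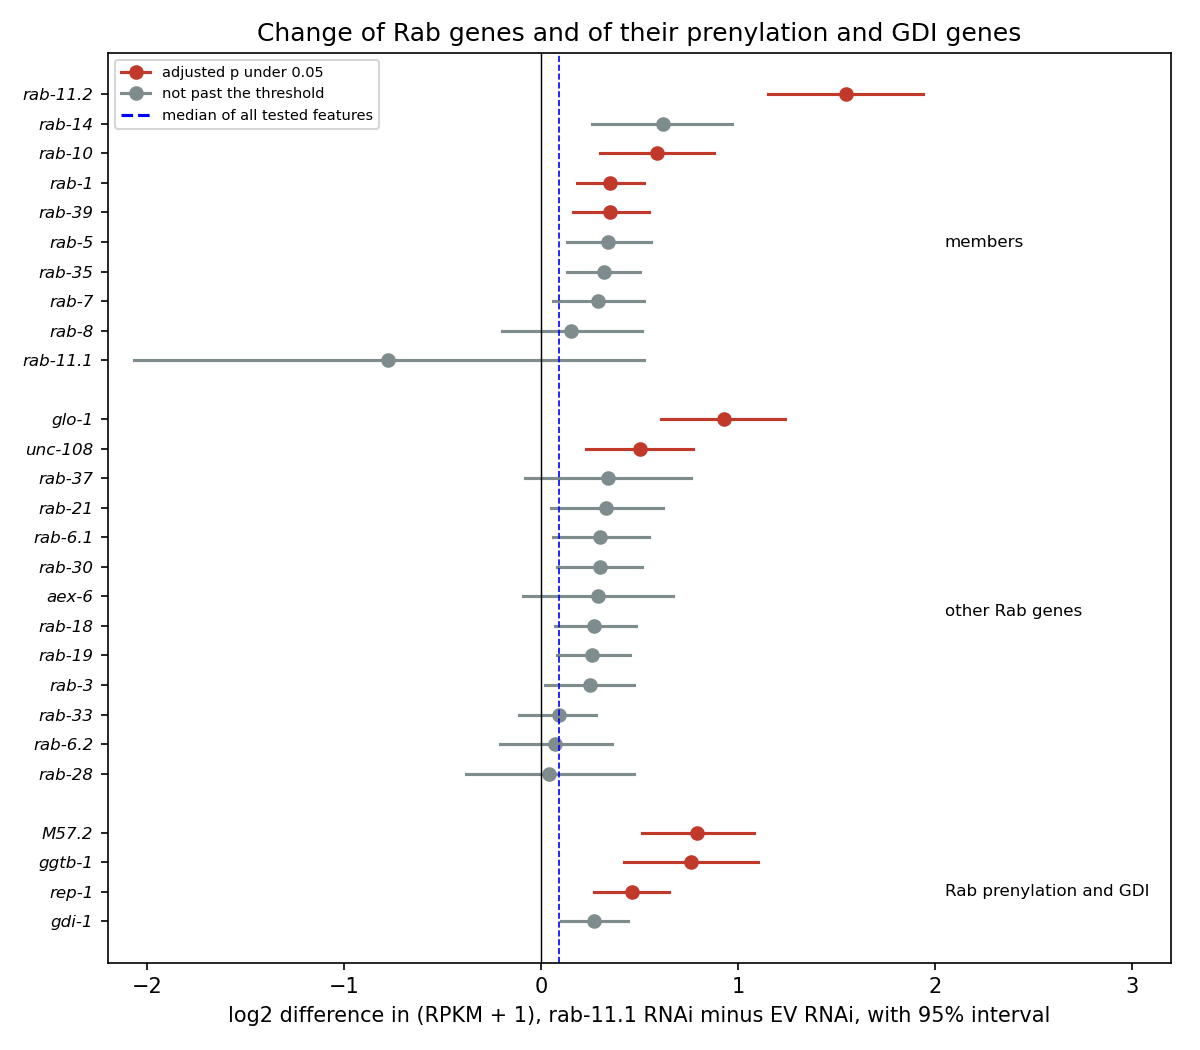
Log2 difference in RPKM + 1, rab-11.1 RNAi minus EV RNAi, with its 95% interval, for the 10 Rab genes, 13 other Rab genes and 4 genes of Rab prenylation and GDI, in red where the adjusted p passed. The dashed line is the median of all tested features (0.09). Most genes lie right of that line, and rab-11.1 has the widest interval (-2.07 to 0.52).

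RPKM is a level per length, so the 10 genes can be ordered at the lengths behind these values. Those lengths differ from the annotated exon lengths, for example 1149 against 880 bases for rab-35 and 1170 against 1300 bases for rab-14. The order at the annotated lengths was not computed and may differ. After EV RNAi the order was rab-11.1, rab-1, rab-5, rab-7, rab-10, rab-8, rab-14, rab-35, rab-39 and rab-11.2, with no overlap between the library ranges of neighbours. After rab-11.1 RNAi rab-1 had the highest mean (402 RPKM), ahead of rab-11.1 (307 RPKM), and rab-10 and rab-14 each stood 1 place higher, ahead of rab-7 and rab-8. In that group the ranges of rab-11.1 overlapped those of rab-1 and rab-5, those of rab-10 overlapped rab-5 and rab-7, and those of rab-14 overlapped rab-8. Among all tested features the mean levels of rab-11.1 and rab-1 over the 6 libraries lay at the 97.5th percentile and rab-11.2 at the 2.9th.

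Summed over the 23 Rab genes of the table that were listed, the RPKM was 1507, 1729 and 1988 in R1, R2 and R3, against 1498, 1533 and 1490 in EV RNAi replicates 1, 2 and 3. The target made up 10.04%, 7.97% and 31.8% of this sum after rab-11.1 RNAi, against 27.4%, 26.0% and 27.5% after EV RNAi. Without the target, the other 9 of the 10 genes summed to 867.5, 1020 and 868.7 RPKM in rab-11.1 RNAi larvae, against 706.8, 712.5 and 692.0 RPKM in EV RNAi larvae. All 3 rab-11.1 RNAi libraries lay above all EV RNAi libraries in this sum of 9 genes, and R2 was the highest. The median tested feature lay at 106% of the EV RNAi mean in each rab-11.1 RNAi library.

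The other Rab genes had a median log2 difference of 0.29, against 0.35 for the 10. Of 13 tested, 2 rose and 0 fell, against 7.93% of all features higher, and all rab-11.1 RNAi libraries lay above all EV RNAi libraries in 9, against 27.4%. Without the library labelled R3, 1 rose, against 4.17%. The gene glo-1, a Rab of lysosome-related gut granules, had 17.2, 23.3 and 19.7 RPKM in rab-11.1 RNAi larvae, against 9.06, 10.97 and 10.1 RPKM in EV RNAi larvae (log2 0.93, SE 0.13, adjusted p = 0.00993 by limma). The gene unc-108, which encodes RAB-2 of dense core vesicles and phagosomes, averaged 227 RPKM in rab-11.1 RNAi larvae and 160 RPKM in EV RNAi larvae (log2 0.50, SE 0.11, adjusted p = 0.0404). The call of glo-1 ended without EV RNAi replicate 3 (adjusted p = 0.0572) and held in the other 16 alternative settings. That of unc-108 held in 7 of 17, and ended with median-of-ratios scaling (0.122), quantile normalization (0.0527), no filter (0.059), no trend (0.0707), the block on replicates 1 and 2 alone (0.0697) and without R1, R2, the library labelled R3 or EV RNAi replicate 1 or 3 (0.0739 to 0.163). With the replicate block 4 of the 13 rose, against 16.5%.

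The genes that prenylate and extract Rabs rose in 3 of 4 cases, against 7.93% of all features, and in the same number without the library labelled R3, against 4.17% (median log2 difference 0.61). M57.2, the alpha subunit of the Rab geranylgeranyl transferase, had 49.2, 65.6 and 50.4 RPKM in rab-11.1 RNAi larvae, against 30.1, 32.8 and 30.4 RPKM in EV RNAi larvae (log2 0.79, SE 0.12, adjusted p = 0.0129 by limma). Its beta subunit ggtb-1 averaged 25.4 RPKM in rab-11.1 RNAi larvae and 14.4 RPKM in EV RNAi larvae (adjusted p = 0.0255), and the escort gene rep-1 18.9 RPKM in rab-11.1 RNAi larvae and 13.4 RPKM in EV RNAi larvae (adjusted p = 0.0188). The dissociation inhibitor gene gdi-1 averaged 343 RPKM in rab-11.1 RNAi larvae and 284 RPKM in EV RNAi larvae and missed the threshold (adjusted p = 0.0651). With median-of-ratios scaling, with quantile normalization, in the block on replicates 1 and 2 alone and without R1, 1 of the 4 was called, M57.2 each time. The calls of ggtb-1 (adjusted p = 0.052, 0.0539, 0.0642 and 0.0677) and rep-1 (0.0567, 0.0785, 0.0691 and 0.0816) ended there. Without EV RNAi replicate 1 or 3, 0 of the 4 were called.

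Of 19 GEF genes limma called 0, against 7.93% of all features higher and 1.07% lower (median log2 difference 0.22). At an unadjusted p under 0.05 it had 7 higher and 0 lower, against 21.6% and 4.93% of all features. Without the library labelled R3 it called 0, against 4.17% of features higher. With the replicate block it called 4, all higher, against 16.5% of all features, and limma-voom called 1, among 1210 features called. For the other Rab genes, the prenylation and GDI genes, the GAPs and the small GTPases, limma likewise had 0 lower at an unadjusted p under 0.05. Among the 19, rei-1 and rei-2, exchange factors of RAB-11 in the worm, are listed under the sequence names C03C10.4 and K03E6.7. Both missed the threshold, with log2 differences of 0.36 (SE 0.19, adjusted p = 0.27) and 0.28 (SE 0.12, adjusted p = 0.208). Of 21 GAP genes 3 rose and 0 fell, against 7.93% of all features higher (median 0.18), and without the library labelled R3, 2 rose, against 4.17%. The TBC-domain gene tbc-15 averaged 46.2 RPKM in rab-11.1 RNAi larvae and 21.1 RPKM in EV RNAi larvae (log2 1.09, SE 0.10, adjusted p = 0.00241), tbc-14 44.3 RPKM in rab-11.1 RNAi larvae and 21.3 RPKM in EV RNAi larvae (adjusted p = 0.00791), and tbc-2, a GAP of RAB-5, 23.2 RPKM in rab-11.1 RNAi larvae and 16.5 RPKM in EV RNAi larvae (adjusted p = 0.0253). The calls of tbc-15, tbc-14 and tbc-2 held in 17, 16 and 10 of the 17 alternative settings, and that of tbc-2 ended with median-of-ratios scaling (adjusted p = 0.0567), with quantile normalization (0.08) and without the library labelled R3 (0.0739).

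Of 29 small GTPases outside the Rab family, 8 rose and 0 fell, against 7.93% of all features higher (median log2 difference 0.22), and without the library labelled R3, 6 rose, against 4.17%. The largest difference was that of arf-1.1 of the ARF family, with 39.3, 75.8 and 43.6 RPKM in rab-11.1 RNAi larvae, against 2.78, 3.93 and 2.38 RPKM in EV RNAi larvae (log2 3.70, SE 0.26, adjusted p = 0.00172 by limma). The next was arl-7, also of the ARF family, which averaged 10.1 RPKM in rab-11.1 RNAi larvae and 1.42 RPKM in EV RNAi larvae (log2 2.19, SE 0.27, adjusted p = 0.00619). Both were called in all 17 alternative settings. The exocyst regulator ral-1 averaged 49.8 RPKM in rab-11.1 RNAi larvae and 31.3 RPKM in EV RNAi larvae (adjusted p = 0.0107). The polarity gene cdc-42 averaged 172 RPKM in rab-11.1 RNAi larvae and 116 RPKM in EV RNAi larvae (adjusted p = 0.0133), and arl-8 of lysosome transport 80.3 RPKM in rab-11.1 RNAi larvae and 53.0 RPKM in EV RNAi larvae (adjusted p = 0.0245). Level with arl-8 in its p, the cdc-42 relative crp-1 averaged 18.5 RPKM in rab-11.1 RNAi larvae and 11.4 RPKM in EV RNAi larvae. These 4 calls held in 15 (ral-1), 14 (cdc-42), 12 (arl-8) and 13 (crp-1) of the 17 settings. The shares of the lists were not tested against each other.

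**Figure D4:**
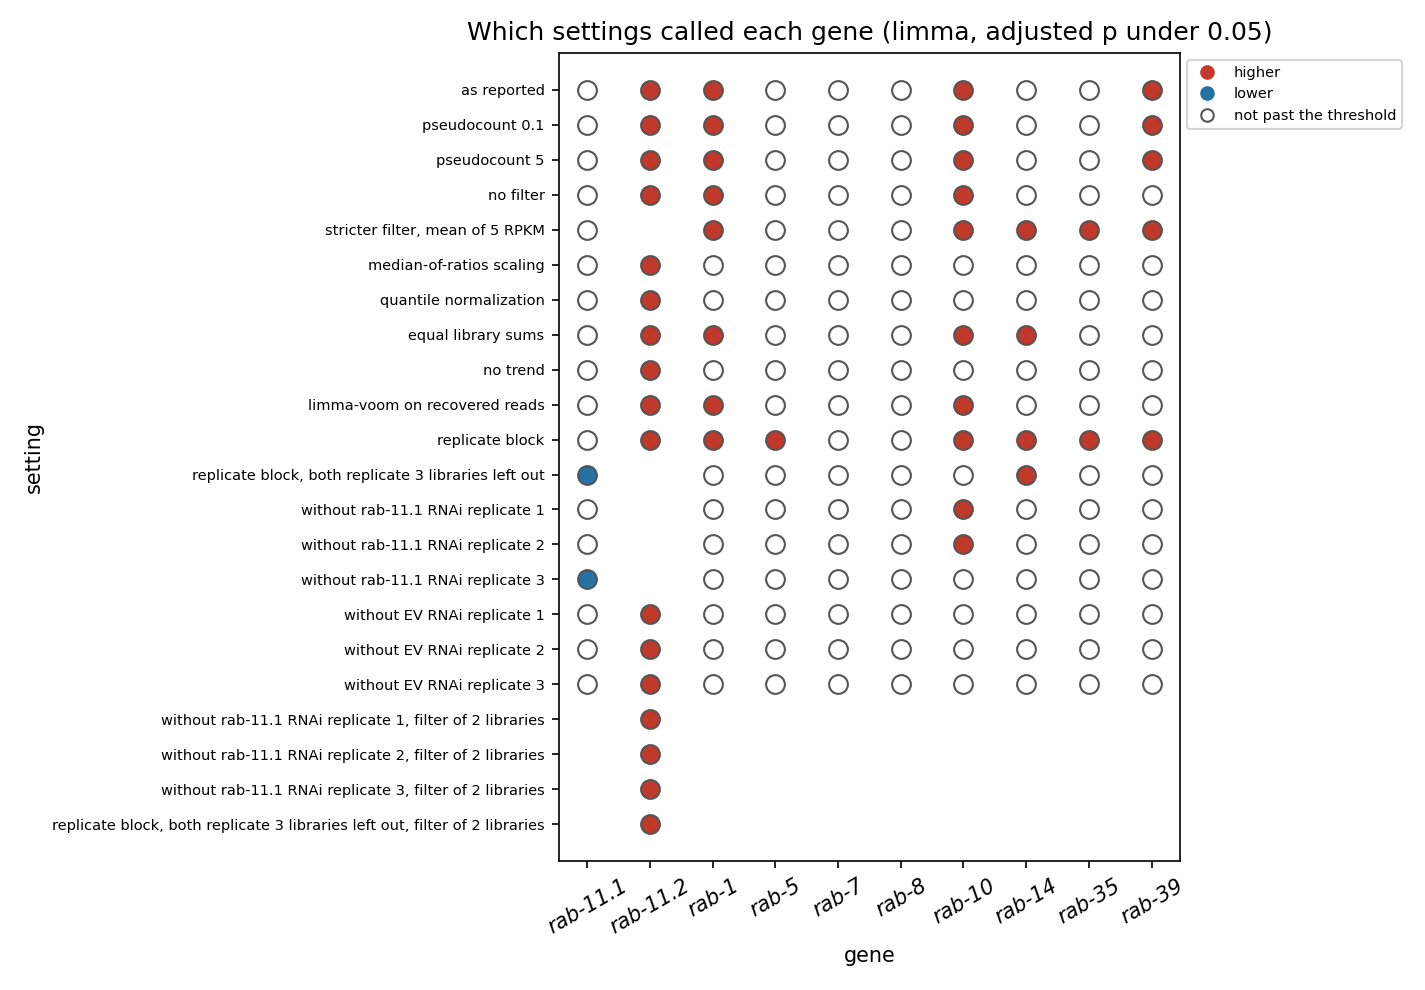
Each row is a setting of the limma test and each column a Rab gene, with a filled circle where the adjusted p passed (red higher, blue lower after rab-11.1 RNAi), an open circle where it did not and no circle where the gene was not tested. The gene rab-11.2 was called wherever it was tested, rab-11.1 only in 2 settings without the library labelled R3, and rab-7 and rab-8 in none. Except with no filter, rab-11.2 was tested only through its rab-11.1 RNAi libraries, so a call higher was the only one open to it.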

How the data were processed

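Paired reads were turned by the authors into RPKM values for 46739 features in 6 libraries, with group means, per the file headers. Per the submitters' processing notes the genome build was WBcel235. No source used here names an aligner, counter, annotation or strand setting. Depths were recovered from the step of 1 read between RPKM values, and whole reads (tolerance 0.001, wider above 10000 reads) were found for all 19491 features above 0. The test was limma 3.58.1 in R 4.3.3 on log2 of RPKM plus a pseudocount of 1, with eBayes using trend and robust, group as the only term, two-sided, on the 13833 features with 3 or more libraries at 1 RPKM or above. P-values were adjusted over these by Benjamini-Hochberg, with a threshold of 0.05. An exact permutation test of 3 against 3 libraries cannot give a p below 0.1. Locations are from the Ensembl annotation of WBcel235, whose exon lengths differ for most members from those behind the RPKM values.

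Members and lists were chosen with earlier results of these data known. Named were all members, passing genes of each list (up to 5 in each direction by smallest adjusted p, and a 6th where tied), the flanking genes of rab-11.1 and of its paralogue, and the 5 features most correlated with rab-11.1. Libraries with the same replicate number had deviations from their group means that correlated at 0.40, 0.62 and 0.35 across tested features. R3 and EV RNAi replicate 1 correlated at 0.46, so these values do not settle the partner of R3. The numbers were used as a block in alternative fits only, and the main test had group as its only term. Alternatives covered the pseudocount, filter, scaling, trend, voom, replicate block and libraries left out.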

Additional observations from a re-analysis of the deposited data

How the results depend on the processing

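The direction of rab-11.1 was lower and that of rab-11.2 higher in every setting that tested them. Except with no filter, rab-11.2 was tested only through its rab-11.1 RNAi libraries, so higher was the only direction open to it. The log2 difference of rab-11.1 ran from -1.49 to -0.39 with 1 library left out. It was -1.48 with the replicate block on replicates 1 and 2 alone (adjusted p = 0.00996 by limma). The library labelled R3 stands apart by its own rab-11.1 level. Fits without it therefore describe R1 and R2 and are no independent test of the target. For rab-11.2 the difference ran from 1.44 to 1.61 with 1 library left out. It was 0.50 with a pseudocount of 5, 3.60 with one of 0.1 and 4.6 with limma-voom, which also changes the model. For rab-8 it ran from -0.02 (without R2) to 0.25. Members called higher numbered 1 with median-of-ratios scaling and 1 with quantile normalization, beside 552 and 524 of all features called higher. They numbered 1 without the trend, beside 916 features called in either direction. With the replicate block they numbered 7, against 16.5% of all features. They numbered 1 with the block on replicates 1 and 2 alone, beside 915 features called in either direction. With 1 library left out they numbered 0 to 1, beside 284 to 1063 such features. In the block on replicates 1 and 2 alone and without R1, R2 or the library labelled R3, rab-11.2 was below the filter and not tested. With the filter lowered to 2 libraries, as in its range above, it passed there (adjusted p = 0.0215, 0.0188, 0.00871 and 0.0156 by limma). That filter was chosen after seeing the data, and rab-11.2 again met it only through its rab-11.1 RNAi libraries. Members called lower numbered 1 with the block on replicates 1 and 2 alone and 0 to 1 with 1 library left out. That member was rab-11.1, each time in a fit without the library labelled R3. With that library alone left out, 0.596% of the features tested were called lower. Both scalings moved the median of all features from 0.09 to -0.02 and -0.04 and that of the members to 0.22 and 0.23, and changed the calls of all features from 1097 higher and 148 lower to 552 higher and 285 lower and to 524 higher and 249 lower. Relative to the median of all features, the members' log2 differences as reported were -0.87 for rab-11.1, 1.45 for rab-11.2 and 0.06 to 0.53 for the others. In the settings in the order of median-of-ratios, quantile, no filter, no trend, block, and block on replicates 1 and 2 alone, other Rab genes called numbered 1, 1, 1, 1, 4 and 1 (0 to 2 with 1 library left out). Prenylation and GDI genes called numbered 1, 1 and 1 with median-of-ratios scaling, quantile normalization and the block on replicates 1 and 2 alone (0 to 3 with 1 library left out). GEFs called numbered 1 with limma-voom, 2 with the stricter filter and 4 with the block (0 with any library left out), and GAPs 5 with limma-voom and 5 with the block (1 to 3 with 1 library left out). Small GTPases called numbered 5 with median-of-ratios scaling and 3 with the block on replicates 1 and 2 alone (2 to 6 with 1 library left out). All features called numbered 1245 as reported, 2906 with the block, 915 with the block on replicates 1 and 2 alone and 916 with no trend. They numbered 837 with median-of-ratios scaling, 773 with quantile normalization and 1210 with limma-voom. With no filter they numbered 943, with the stricter filter 1177 and with 1 library left out 284 to 1063. The number of features tested changes with the filter. The causes of these shifts were not tested. Apart from rab-5, rab-14 and rab-35, the block changed no call of a member. Depth limits rab-11.2 alone among the members, at 0 to 4 reads in EV RNAi libraries.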
